A study of Mus musculus with 8 samples.

Results

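Plasma cells are the antibody-secreting end stage of the B cell lineage, and 8 genes of their identity and secretory machinery were followed in the fat of mice treated with an anti-BAFF antibody (Ab). The genes were chosen by symbol from the deposited gene count table: Jchain, Mzb1, Derl3, Prdm1, Xbp1, Irf4, Sdc1 and Pim2. They were 8 of the 54532 genes in the table, all 8 were found, and all 8 passed the filter for expression that left 15963 genes for testing. Jchain and Derl3 are largely restricted to antibody-secreting and other secretory cells, and Mzb1 is known mainly from marginal zone B cells, B-1 cells and plasma cells. These 3 are called the restricted genes below. The other 5 are also used by many other cell types of fat. Jchain and Mzb1 were lower in every anti-BAFF Ab-treated mouse than in any control Ab-treated mouse, Derl3 differed between mice of the same group by more than between the groups, and the levels of the 5 broadly expressed genes overlapped between the groups.

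RNA was sequenced from the stromal vascular fraction (SVF), the cells left when adipocytes float off a collagenase digest, of 1 gonadal white adipose tissue (WAT) pad per male wild-type C57BL/6J mouse. The study's methods text gives other ages than the series' design text, which is followed here. According to the design text the mice were 6 weeks old when they began a high-fat diet (HFD) with 60% of calories from fat. After 12 weeks they were moved to a normal chow diet (NCD) with 16% of calories from fat, and from then on received 2 mg/kg of either the anti-BAFF Ab Sandy-2 or an IgG1k isotype control Ab at intervals of 2 weeks for 6 weeks, until week 18. Both groups therefore share the HFD and the return to NCD, and neither lean nor uninjected mice were part of the comparison. The control Ab group held mice 1, 2, 6 and 9 and the anti-BAFF Ab group mice 5, 7, 8 and 10, with 1 library per mouse.

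BAFF is a survival factor for mature B cells, which are the precursors of most newly formed plasma cells, and it also binds BCMA, a receptor on plasma cells that is encoded by Tnfrsf17. In a plasma cell the transcription factors Irf4 and Prdm1 (Blimp-1) shut down the B cell programme, and Xbp1, activated by the unfolded protein response (UPR), enlarges the endoplasmic reticulum (ER) in which antibody chains are folded and joined. Plasma cells and IgM-producing B cells are found in visceral fat, but the same transcription factors also serve myeloid, T and epithelial cells, so that their RNA in whole SVF is not specific to the B lineage.

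The libraries held 13562340 to 16778627 counts in the control group and 14555098 to 18548024 in the anti-BAFF group. Levels are given as CPM (the count after scaling all libraries to 1 common size with TMM factors) unless stated otherwise. The detection floor of 3 counts corresponded to at most 0.219 CPM (counting error only). The summed level of 7 progenitor markers (9998 to 12528 CPM in the control group, 10587 to 12550 in the anti-BAFF group) and of 8 macrophage markers (4779 to 6337 and 5090 to 5900 CPM) showed that the main cells of the labelled tissue were there. RNA of neighbouring male glands was present too: 10 epididymis markers summed to between 18.7 CPM in control mouse 1 and 2053 CPM in anti-BAFF mouse 7, with 1937 CPM in control mouse 2, and 5 prostate markers reached 898 CPM in anti-BAFF mouse 8. The 3 seminal vesicle markers summed to 103 CPM in control mouse 9 and to at most 0.591 CPM elsewhere. In bulk RNA, fewer cells that hold a message and less of it per cell cannot be told apart, and neither can the cell types that hold it.

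The promoters of 3 of the genes are shown because they differ in the letters that B cell and UPR factors are known to bind. The sequences, 250 bases before to 50 bases after the annotated start, are those of RefSeq on GRCm38.p6 (the build also called mm10, which the submitters' processing notes name), and 7 of the 8 genes were examined. The motifs were searched on both strands with these letters: the octamer ATGCAAAT of the POU factors that Pou2af1 assists, the UPR element TGACGTGG, the ER stress element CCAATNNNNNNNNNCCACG, and ACGTG, the core of many bZIP sites, which also lies within the UPR element. They occurred in the promoters of 1.97%, 0.714%, 0.137% and 21.8% of 27025 genes. Capitals mark the matches.
Jchain: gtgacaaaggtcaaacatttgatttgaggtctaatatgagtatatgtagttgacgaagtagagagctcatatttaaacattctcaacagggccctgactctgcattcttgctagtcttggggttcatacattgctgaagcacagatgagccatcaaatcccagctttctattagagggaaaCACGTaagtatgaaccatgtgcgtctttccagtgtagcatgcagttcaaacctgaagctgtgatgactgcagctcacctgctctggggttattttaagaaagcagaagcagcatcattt
Derl3: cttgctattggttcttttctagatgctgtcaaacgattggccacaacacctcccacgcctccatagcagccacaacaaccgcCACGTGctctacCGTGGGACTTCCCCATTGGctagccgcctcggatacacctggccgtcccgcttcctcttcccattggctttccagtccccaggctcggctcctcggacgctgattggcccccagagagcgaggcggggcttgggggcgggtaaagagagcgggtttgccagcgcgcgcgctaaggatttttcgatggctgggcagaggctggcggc
Pim2: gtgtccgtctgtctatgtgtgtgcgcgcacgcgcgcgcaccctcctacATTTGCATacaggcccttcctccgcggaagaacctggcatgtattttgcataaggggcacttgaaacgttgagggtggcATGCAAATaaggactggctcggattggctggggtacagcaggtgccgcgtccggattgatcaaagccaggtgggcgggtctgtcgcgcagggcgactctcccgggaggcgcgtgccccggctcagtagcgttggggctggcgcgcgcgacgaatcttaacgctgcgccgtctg
The Jchain sequence (chr5:88527848-88528147, minus strand) held 1 ACGTG match, read on the opposite strand at positions -69 to -65 from the start. The Derl3 sequence (chr10:75893148-75893447, plus strand) held 1 ER stress element on the opposite strand at -156 to -138, which 37 of the 27025 genes have, and a palindromic pair of overlapping ACGTG matches at -168 to -163. Pim2 (chrX:7878056-7878355, plus strand) had 2 octamers, at -202 to -195 on the opposite strand and at -123 to -116 on its own strand. No match to the searched letters lay in the windows of Prdm1, Xbp1, Irf4 and Sdc1. The Jchain window was the poorest in G and C, at 42.3%, against 51.0 to 66.3% for the others and a median of 52.7% over all 32851 promoters in the table. These matches describe the letters and were not tested as binding sites.

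The comparison of the groups addresses what BAFF neutralization does to the RNA of these genes in fat. In edgeR's quasi-likelihood test with Benjamini-Hochberg adjustment, 1 of the 8 genes (Jchain) was lower at an adjusted p of 0.05 and 0 were higher, where 0.0564% of all genes tested were lower and 0 genes were higher (4 in DESeq2). At an unadjusted p of 0.05, 2 of the 8 genes (Jchain and Mzb1) were lower, against 1.24% of all genes, and 0 were higher, against 0.664%. The same pair had no overlap between the groups, where 0.952% of all genes did not overlap and were lower and 0.526% did not overlap and were higher. The median log2 fold change (anti-BAFF Ab over control Ab) was -0.16 over the 8 genes and 0.00 over all genes tested. Among the restricted genes 2 of 3 were lower at an unadjusted p of 0.05, and among the broadly expressed genes 0 of 5. Each p-value here sets the difference between the groups against the spread between mice of a group.

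Jchain (ENSMUSG00000067149, chr5:88519809-88527891, minus strand) encodes the joining chain that links IgM pentamers and IgA dimers and allows their transport across epithelia. In the control group it was at 129 CPM in mouse 1, 84.2 in mouse 2, 121 in mouse 6 and 174 in mouse 9. The anti-BAFF group had 21.9 CPM in mouse 5, 10.1 in mouse 7, 29.3 in mouse 8 and 13.3 in mouse 10. The lowest control mouse was thus well above the highest anti-BAFF mouse, and the anti-BAFF mean was 14.7% of the control mean (18.7 ± 8.68 CPM against 127 ± 37.0 CPM, SD, n = 4 each). The log2 fold change was -2.77 (standard error 0.35, 95% interval -3.56 to -1.98, adjusted p = 0.0448 in edgeR's quasi-likelihood test), which ranked 6 by p among all genes tested. From 1424 to 2813 counts lay behind each control value and from 179 to 449 behind each anti-BAFF value. The size of the fall was stable when mice were left out in turn (-3.09 to -2.58), but its adjusted p in edgeR ranged from 0.0445 to 0.186 and stayed under 0.05 only without control mouse 2. It was 0.0523 with edgeR's robust option and 2.67e-14 in DESeq2.

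Mzb1 (ENSMUSG00000024353) encodes an ER protein of marginal zone B cells, B-1 cells and plasma cells that helps assemble and secrete IgM. Its level was 6.14 CPM in control mouse 1, 4.73 in mouse 2, 6.07 in mouse 6 and 7.50 in mouse 9. In the anti-BAFF group it was 2.63 CPM in mouse 5, 0.732 in mouse 7, 1.37 in mouse 8 and 1.10 in mouse 10. Again no anti-BAFF mouse reached the lowest control mouse, and as for Jchain mouse 7 was the lowest of the 8 and control mouse 9 the highest. The group means were 6.11 ± 1.13 and 1.46 ± 0.821 CPM (SD, n = 4 each), so that 23.9% of the control level was left. At a log2 fold change of -2.07 (standard error 0.36, 95% interval -2.89 to -1.26) it ranked 23 by p among all genes tested, and did not pass the adjusted threshold in edgeR's quasi-likelihood test (unadjusted p = 0.000270, adjusted p = 0.188). DESeq2 called it lower (adjusted p = 1.02e-05). The counts were few, 80 to 121 in the control mice and 13 to 39 in the anti-BAFF mice.

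**Figure D1:**
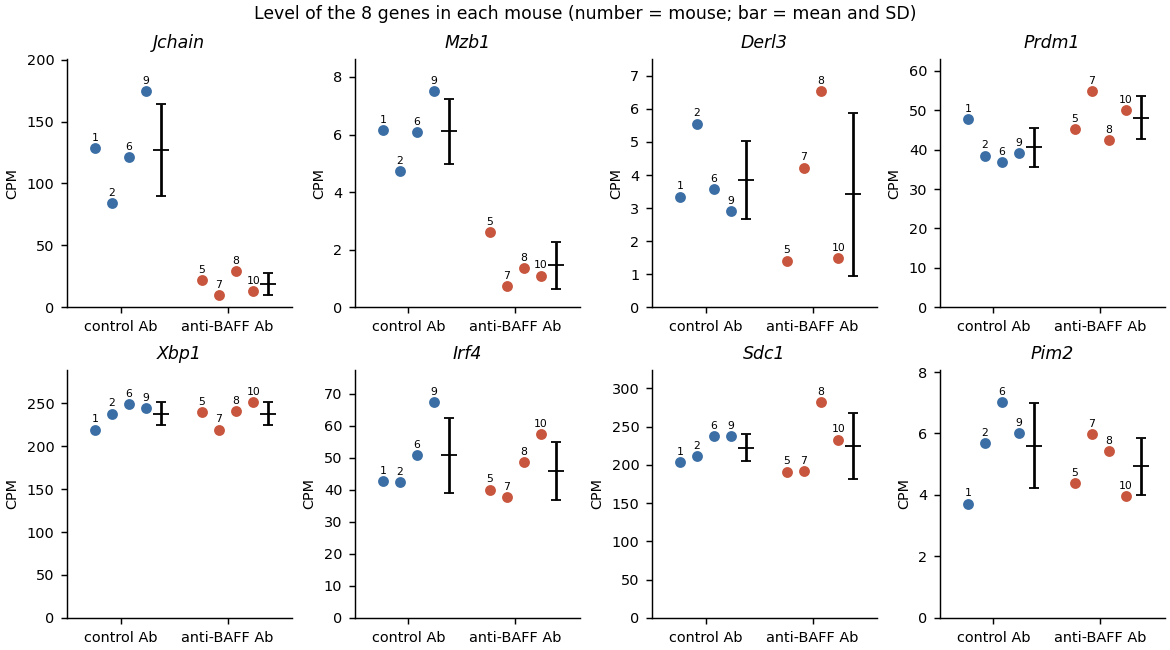
Level of each of the 8 genes in each mouse, in CPM on a linear axis from 0, with control Ab mice in blue and anti-BAFF Ab mice in red; the number is the mouse, and the bar gives the group mean and SD. Jchain and Mzb1 separate the groups, Derl3 spreads widely within both, and the other 5 genes overlap.

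Derl3 (chr10:75893413-75895941, plus strand) encodes Derlin-3, which takes part in the removal of misfolded proteins from the ER and is known from plasma cells and other strongly secretory cells such as glands. In the control group its level was 3.35 CPM in mouse 1, 5.56 in mouse 2, 3.58 in mouse 6 and 2.91 in mouse 9. The anti-BAFF group had 1.41 CPM in mouse 5, 4.22 in mouse 7, 6.53 in mouse 8 and 1.49 in mouse 10. Anti-BAFF mice thus held both the lowest pair of values and the highest value, and the groups overlapped. The means were 3.85 ± 1.17 and 3.41 ± 2.45 CPM (SD, n = 4 each), and the log2 fold change was -0.18 (standard error 0.49, 95% interval -1.28 to 0.92, unadjusted p = 0.725 in edgeR's quasi-likelihood test). The interval is wide and includes sizeable changes in both directions.

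Of the 3 mice with the highest Derl3, anti-BAFF mouse 8 had the highest sum of prostate markers (898 CPM). Anti-BAFF mouse 7 (2053 CPM) and control mouse 2 (1937 CPM) had the highest sums of epididymis markers. Sums of different marker lists do not rank the amounts of gland RNA, and the prostate markers were listed after the values were seen. Bhlha15 (Mist1), a transcription factor of secretory cells including plasma cells and gland cells, was also highest in mouse 8, at 3.46 CPM against 0.135 to 1.30 CPM in the other 7 mice. No value without these 3 mice is given for Derl3, since they are also the 3 with its highest levels. When single mice were left out the value ranged from -0.70 to 0.076, and it was above 0 without control mouse 2 (0.056), anti-BAFF mouse 5 (0.061) or anti-BAFF mouse 10 (0.076). Control mouse 6 and anti-BAFF mouse 5 had lower epididymis levels (810 and 798 CPM) with Derl3 at 3.58 and 1.41 CPM, and with the epididymis level as a covariate the slope of Derl3 on it was 0.07 (log2 per log2, unadjusted p = 0.524 in edgeR's quasi-likelihood test). After mouse 8, the next highest prostate level was that of anti-BAFF mouse 10 (73.8 CPM), where Derl3 was at 1.49 CPM. Control mouse 9, with 103 CPM of seminal vesicle markers, had the lowest Derl3 of the control group (2.91 CPM). The part of prostate or seminal vesicle RNA in the Derl3 level was not tested. Jchain and Mzb1 were both lowest in mouse 7. Within the anti-BAFF group Jchain was highest in mouse 8 (29.3 CPM), as Derl3 was, and Mzb1 was highest in mouse 5 (2.63 CPM). Without control mouse 2 and anti-BAFF mice 7 and 8, a choice made after the values were seen, the log2 fold change was -3.00 for Jchain and -1.82 for Mzb1. The part of prostate RNA in the Jchain and Mzb1 levels was not tested either.

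**Figure D2:**
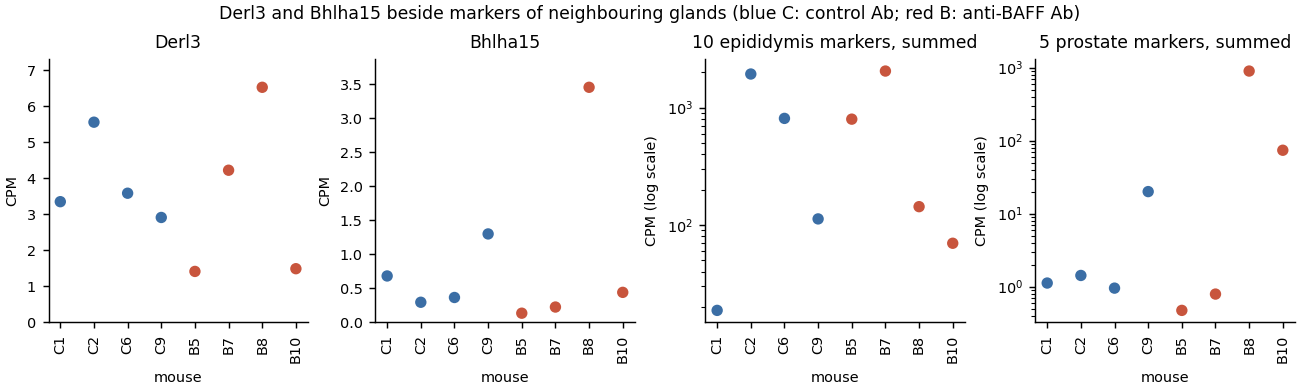
Derl3 and Bhlha15 (CPM, linear axes from 0) beside the summed CPM of 10 epididymis and 5 prostate markers (log axes) in each mouse, C for control Ab in blue and B for anti-BAFF Ab in red. Derl3 is highest in B8, C2 and B7, and these are the mice with the most prostate RNA (B8, 898 CPM) or epididymis RNA (B7 and C2, 2053 and 1937 CPM).

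The 3 transcription factors of the plasma cell programme showed no fall of the size seen for Jchain. Prdm1 (chr10:44437177-44528501) was at 47.7, 38.5, 36.9 and 39.2 CPM in control mice 1, 2, 6 and 9. Its level in anti-BAFF mice 5, 7, 8 and 10 was 45.2, 54.7, 42.3 and 49.9 CPM. All anti-BAFF mice lay above 3 of the control mice, and control mouse 1 lay among them. The means were 40.6 ± 4.86 and 48.1 ± 5.43 CPM (SD, n = 4 each), with a log2 fold change of 0.25 (SE 0.11, 95% interval -0.0019 to 0.49, unadjusted p = 0.0515 in edgeR's quasi-likelihood test). That p fell below 0.05 without control mouse 1 or without anti-BAFF mouse 8, while its adjusted p stayed at 0.352 or above in every setting tried. Relative to the RefSeq start used for the promoter, the deposited Prdm1 interval extends further upstream, so its count covers more than the transcript that begins there.

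Xbp1 (chr11:5520659-5525893), the UPR transcription factor, ranged from 219 to 249 CPM in the control group and from 219 to 251 CPM in the anti-BAFF group. The means of 238 ± 13.1 and 238 ± 13.4 CPM (SD, n = 4 each) gave a log2 fold change of 0.0012 (95% interval -0.17 to 0.18). The count does not separate the spliced, active form of the Xbp1 message from the unspliced form. Irf4 (chr13:30749226-30766976), needed by both germinal centre B cells and plasma cells and also used by macrophages and T cells, was at 42.7, 42.4, 50.8 and 67.4 CPM in control mice 1, 2, 6 and 9. It was at 40.1, 37.6, 48.7 and 57.3 CPM in anti-BAFF mice 5, 7, 8 and 10, and both groups spanned much the same range. The log2 fold change of Irf4 was -0.15 (standard error 0.18, 95% interval -0.55 to 0.26, unadjusted p = 0.440 in edgeR's quasi-likelihood test), and it was 0.02 without control mouse 9.

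Sdc1 (chr12:8771323-8793715) encodes syndecan-1 (CD138), the surface proteoglycan by which plasma cells are commonly sorted and which epithelial and mesothelial cells carry as well. It ranged from 203 to 238 CPM in the control mice, and in the anti-BAFF mice it was at 191 CPM in mouse 5, 192 in mouse 7, 282 in mouse 8 and 233 in mouse 10. Mouse 8, the one with the most prostate RNA, had the highest value of all, mice 5 and 7 lay below every control mouse, and mouse 10 lay within the control range. The log2 fold change was 0.012 (standard error 0.13, 95% interval -0.29 to 0.31), and without mouse 8 it was -0.13. Summed over 7 mesothelial markers, the level was 312 to 900 CPM in the control and 521 to 688 CPM in the anti-BAFF mice, and all 7 had log2 fold changes below 0, with none at an unadjusted p of 0.05. The part of these cells in the Sdc1 level was not tested. Pim2 (chrX:7878262-7883432), a survival kinase of B cells, plasma cells and T cells, was at 3.72 to 7.02 CPM in the control group and 3.97 to 5.97 CPM in the anti-BAFF group. Its log2 fold change was -0.18 (standard error 0.23, 95% interval -0.69 to 0.33).

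**Figure D3:**
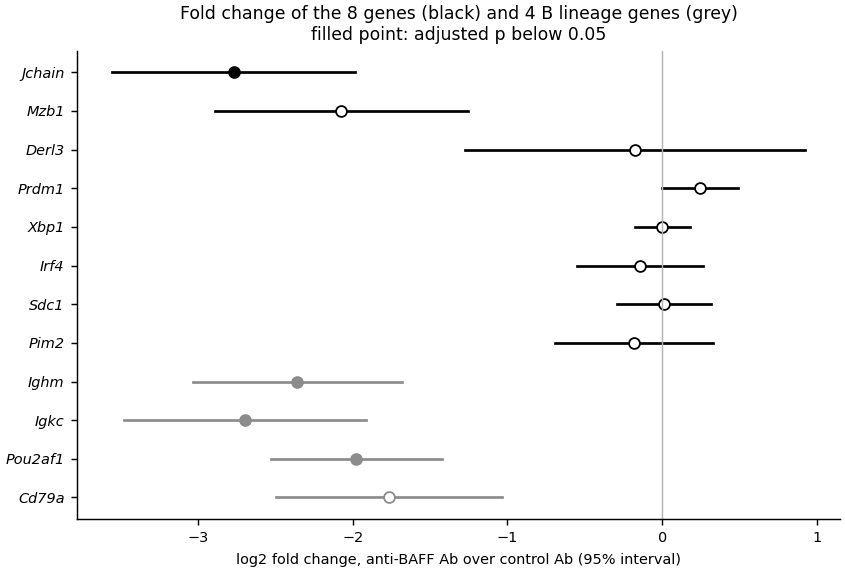
Log2 fold change (anti-BAFF Ab over control Ab) with its 95% interval for the 8 genes (black) and for Ighm, Igkc, Pou2af1 and Cd79a (grey); filled points have an adjusted p below 0.05 in edgeR's quasi-likelihood test. The intervals of Jchain (-3.56 to -1.98) and Mzb1 (-2.89 to -1.26) lie among those of the B lineage genes, and the intervals of the other 6 genes reach 0.

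Whether a gene changed by another factor than the B lineage messages was tested on its ratio, in each mouse, to Ighm (the IgM heavy chain, made by B cells and IgM plasma cells) and to Cd79a (a part of the B cell receptor). For the 16 ratios the difference between the groups of the mean log2 ratio of counts (0.5 added to each) was tested by permuting the mice (exact, two-sided), which with these groups cannot give a p below 0.0286. The ratio of Jchain to Ighm was -3.64, -3.58, -3.48 and -3.24 in control mice 1, 2, 6 and 9 and -3.97, -3.99, -3.72 and -3.90 in anti-BAFF mice 5, 7, 8 and 10. It was thus lower in every anti-BAFF mouse than in any control mouse (difference of the means -0.41, exact permutation p = 0.0286, adjusted 0.0416). The other ratios at this smallest p were those of the 5 broadly expressed genes, which mainly restate the fall of the references. The adjusted value is this low only because they share that p, so it adds no support for Jchain. Against Igkc, the kappa light chain, no such difference was found (difference -0.040, exact permutation p = 0.6). Against Cd79a the Jchain difference was -0.97 (exact permutation p = 0.0571, adjusted 0.0703).

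For Mzb1 the ratios to Ighm and Cd79a overlapped between the groups, with a difference of 0.25 against Ighm (exact permutation p = 0.429) and -0.31 against Cd79a (exact permutation p = 0.314). The choice of the surface gene mattered: against Cd79b, the partner of Cd79a, whose own fall was smaller (log2 fold change -0.68), the difference was -2.11 for Jchain and -1.45 for Mzb1 (exact permutation p = 0.0286, adjusted 0.0653 each). For Prdm1, Xbp1, Irf4, Sdc1 and Pim2 the differences were 2.26 (Pim2) to 2.67 (Prdm1) against Ighm and 1.71 (Pim2) to 2.12 (Prdm1) against Cd79a. As Ighm and Cd79a were themselves lower without overlap and the 5 genes had log2 fold changes near 0, these ratios mainly restate the fall of the references and are given as a description. Derl3 had differences of 2.00 against Ighm (exact permutation p = 0.0571, adjusted 0.0703) and 1.44 against Cd79a (exact permutation p = 0.114, adjusted 0.131). Against Cd79b the differences of the 5 broadly expressed genes were 0.56 to 0.98, and that of Derl3 was 0.30.

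Per length of gene model, the order of the levels changed between the groups. In FPKM (the CPM divided by gene length), the control group had Xbp1 first (73.2 ± 4.04 FPKM, SD, n = 4), then Sdc1 (58.4 ± 4.65) and Jchain (50.5 ± 14.7). Sdc1 and Jchain overlapped among the control mice. Irf4 (10.4 ± 2.39 FPKM), Prdm1 (7.27 ± 0.872) and Mzb1 (6.75 ± 1.25) followed, and the last 2 of these overlapped. Pim2 (2.01 ± 0.494 FPKM) and Derl3 (1.93 ± 0.588) were the lowest and did not differ beyond their spread. In the anti-BAFF group, Jchain stood at rank 5 with 7.42 ± 3.45 FPKM, overlapping Prdm1 (8.61 ± 0.973), which overlapped Irf4 (9.37 ± 1.83). Mzb1 was last at 1.61 ± 0.908 FPKM and could not be set apart from Derl3 (1.71 ± 1.23) or Pim2 (1.76 ± 0.329). Xbp1 (73.2 ± 4.13 FPKM) and Sdc1 (58.9 ± 11.3) remained the highest pair.

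Of 16 further genes listed for plasma cell identity, 13 were tested. One, Pou2af1, was lower at an adjusted p of 0.05, 2 (Pou2af1 and Trp53inp1) were lower at an unadjusted p of 0.05, 0 were higher, and the median log2 fold change of the 13 was -0.11. Pou2af1 (OCA-B), the B cell coactivator of octamer-binding factors, went from 8.34 ± 0.816 to 2.12 ± 0.701 CPM (SD, n = 4 each), a log2 fold change of -1.98 (adjusted p = 0.0448 in edgeR's quasi-likelihood test). Trp53inp1, a stress-response gene with high levels in plasma cells, was at 48.8 ± 4.71 and 38.8 ± 2.89 CPM (log2 fold change -0.33, unadjusted p = 0.00458, adjusted p = 1.00 in edgeR's quasi-likelihood test) and its groups did not overlap. Tnfrsf17, which encodes the BAFF and APRIL receptor BCMA, was at 1.32 ± 0.334 and 0.866 ± 0.174 CPM, with overlap of the groups and a log2 fold change of -0.60 (unadjusted p = 0.0624 in edgeR's quasi-likelihood test). For Slamf7 (-0.02), Cd38 (-0.03), Cxcr4 (-0.11) and Cd93 (0.11), surface proteins that plasma cells share with many other cells, the log2 fold changes were small and none passed. Cd27, another surface protein, had the highest log2 fold change of the 13 (0.435, unadjusted p = 0.0909 in edgeR's quasi-likelihood test), with overlap of the groups. Of the 13 genes, 9 had log2 fold changes below 0. Ly6k, Bhlha15 and Cacna1s were too low for testing.

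The products and the precursors of plasma cells were set beside these genes. All 7 tested immunoglobulin constant genes had log2 fold changes below 0 (median -2.15), with 2 (Ighm and Igkc) lower at an adjusted and 6 at an unadjusted p of 0.05. Ighm was at 1400 ± 293 and 273 ± 110 CPM, and Igkc at 564 ± 126 and 87.2 ± 41.7 CPM (SD, n = 4 each). Igha, whose product is joined by the J chain as IgM is, had a log2 fold change of -1.60 (28.6 ± 14.9 against 9.39 ± 5.15 CPM, unadjusted p = 0.00673, adjusted p = 1.00 in edgeR's quasi-likelihood test), and its groups did not overlap. Of 9 B cell markers 8 were lower at an unadjusted p of 0.05 (median log2 fold change -1.24), and their summed level was 56.2 to 65.2 CPM in the control and 26.4 to 46.8 CPM in the anti-BAFF mice. The fall of Jchain and Mzb1 therefore went along with a fall of B cell markers, and which cells held their RNA was not tested. Among 7 transcription factors that maintain B cell identity, 1, Pax5, was lower at an unadjusted p of 0.05 (7.06 ± 1.06 against 2.44 ± 0.791 CPM, log2 fold change -1.53, adjusted p = 0.145 in edgeR's quasi-likelihood test). Bach2 (-0.02), Bcl6 (-0.06) and Ebf1 (0.02), which other SVF cells also use, had log2 fold changes near 0.

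The general secretory machinery, which every SVF cell needs, showed no gene past 0.05 in edgeR, by adjusted or unadjusted p. Of 23 tested genes for entry into the ER the log2 fold changes ran from -0.09 to 0.11 (median 0.02), and of 25 for folding in the ER from -0.11 to 0.28 (median -0.02). Fkbp11, a prolyl isomerase abundant in secretory cells, had the highest of these at 0.28 (4.44 ± 0.641 against 5.42 ± 2.35 CPM), and Hspa5 (BiP), the chief ER chaperone, stood at -0.07 (1265 ± 97.9 against 1203 ± 48.0 CPM). The 12 genes of ER-associated degradation, the pathway of Derl3, ran from -0.06 to 0.06 (median 0.01), with Derl1 at -0.02 and Derl2 at -0.06. The 9 UPR sensors and effectors ran from -0.21 (Ppp1r15a) to 0.11 (median -0.03), and Ern1, the sensor that splices the Xbp1 message, was at 0.03. The 18 genes of transport from the ER to the Golgi apparatus ran from -0.02 to 0.13 (median 0.03). Kdelr2, which returns ER proteins, had the highest of these (0.13, unadjusted p = 0.0747 in edgeR's quasi-likelihood test) and its groups did not overlap. The medians of these 5 lists thus lay between -0.03 and 0.03, where the median over all genes tested was 0.00.

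**Figure D4:**
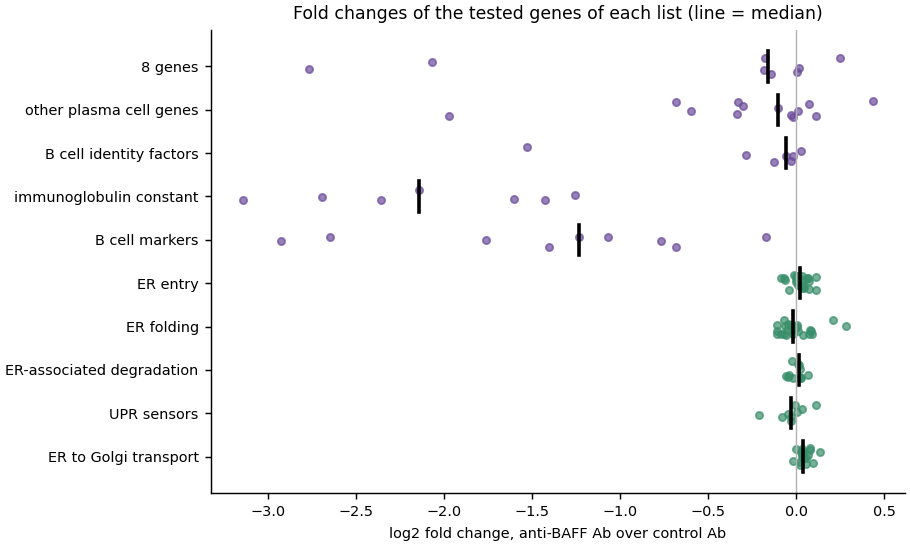
Log2 fold change (anti-BAFF Ab over control Ab) of every tested gene in each list, 1 point per gene, with the list median as a line; B lineage lists in purple and secretory pathway lists in green. The immunoglobulin constant genes (median -2.15) and B cell markers (median -1.24) lie to the left of 0, and the secretory pathway lists lie close to 0, between -0.21 and 0.28.

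Likeness of pattern was measured as the root mean square difference, over the 8 mice, between log2 CPM profiles centred on each gene's mean. Nearest to Jchain were Igkc (0.09), Ighm (0.24) and the heavy chain variable gene Ighv7-3 (0.30), where the profile of Jchain itself had a root mean square spread of 1.5. Mzb1 (spread 1.14) was nearest to Pou2af1 (0.30), Ighm (0.32) and the complement receptor gene Cr2 (0.33). The Derl3 profile (spread 0.72) was nearest to Dcdc2b (0.26), Gm9780 (0.34) and Camsap3 (0.38), none of them an immunoglobulin gene. Prdm1 was nearest to Tmem192, Gtf2h1 and Lig4 (0.06 to 0.07, spread 0.19), Xbp1 to Tut7, Sik3 and Map1lc3b (0.02 to 0.03, spread 0.07), Irf4 to Zfp959, Heyl and Tnfrsf18 (0.09 to 0.10, spread 0.26), Sdc1 to Gm12346, Pmp22 and Ly6c1 (0.06, spread 0.18) and Pim2 to D630045J12Rik, Fasn and Echdc3 (0.08 to 0.11, spread 0.30). Relative to its own spread, Jchain had a closer neighbour than any of the other 7 genes. These distances are a description over 8 mice that share their libraries and grouping.

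**Figure D5:**
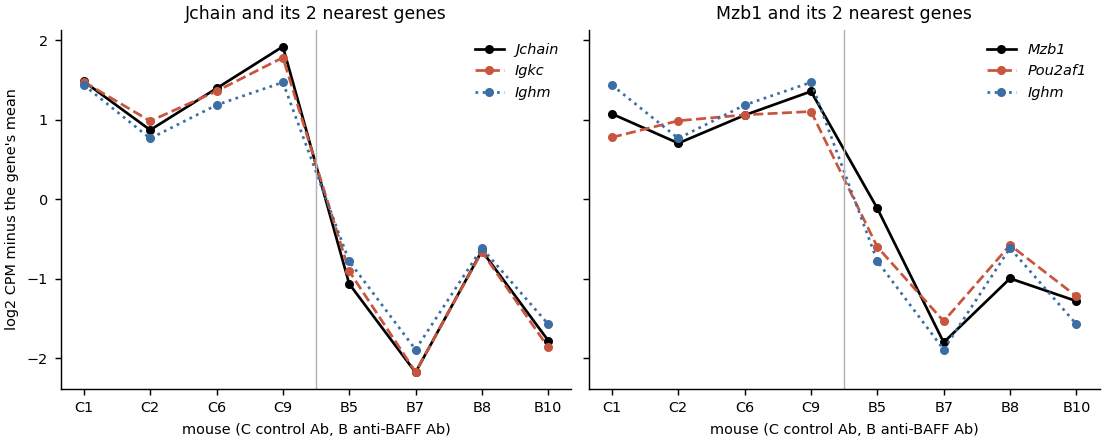
Log2 CPM minus each gene's mean over the 8 mice for Jchain with Igkc and Ighm (left) and for Mzb1 with Pou2af1 and Ighm (right); C marks control Ab and B anti-BAFF Ab mice, separated by the grey line. Jchain and Igkc differ by a root mean square of 0.09 over the mice and both are lowest in B7 and highest in C9.

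The summed levels of markers of other cells that use these genes overlapped between the groups. The summed level of 9 T cell markers was 45.9 to 69.6 CPM in the control and 40.3 to 49.1 CPM in the anti-BAFF mice, and all 9 had log2 fold changes below 0 (median -0.27), the direction of Jchain and Mzb1. One of them, Cd6, was lower at an unadjusted p of 0.05 (log2 fold change -0.90) and did not overlap between the groups. For plasmacytoid dendritic cells, which also express Jchain in some settings, 6 markers summed to 207 to 229 and 193 to 222 CPM. Tcf4 had the highest mean level of the 6, and the sum is not a measure of the number of these cells. The 5 tested markers had log2 fold changes from -0.51 to 0.16 (median -0.09), with none at an unadjusted p of 0.05. The 6 markers of conventional dendritic cells stood at 96.3 to 136 and 86.9 to 111 CPM. None of the markers in these 3 lists was at 0 in every mouse. Their part in the levels of the 8 genes was not tested.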

How the data were processed

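Libraries of 8 mice, 4 control Ab and 4 anti-BAFF Ab, were grouped by the treatment in their labels. The authors sequenced paired ends on a NovaSeq instrument and deposited raw counts per gene with gene lengths (an other value, in bases), used here for FPKM. The submitters' processing notes name mm10, whereas the aligner, the counter, its strand setting and the annotation are not given in the sources used here. The test was edgeR's quasi-likelihood test (edgeR 4.0.16, R 4.3.3) on counts, with filterByExpr (minimum count of 10), TMM and glmQLFit (treatment as the only term, prior degrees of freedom 3.14), with Benjamini-Hochberg adjustment over the 15963 genes kept. Ratios were compared in Python 3.11.15 with scipy 1.17.1. Alternatives used DESeq2 1.42.0, limma 3.58.1 on log2(FPKM + 1), other normalizations and filters, the robust option, a fit without immunoglobulin genes, other references and pseudocounts, and fewer mice. In simulated data with 200 genes changed by 2 on the log2 scale among 15963, 87.5% were recovered with 4.32% false calls. The data themselves had 9 genes called lower, and fewer changed genes make the adjusted threshold harder to pass. The simulated share is therefore not the recovery to expect here, where Mzb1 at a log2 fold change of -2.07 was not called. Replicates differed by more than sampling noise (smallest chi-square per degree of freedom 7.32).

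The 8 genes and all lists were chosen with earlier results of these data known, and the prostate and seminal vesicle markers were listed after the values were seen. Named genes are the 8, the tested plasma cell and immunoglobulin constant genes, up to 3 genes with the smallest p per list, the 3 nearest profiles and the references. Other genes named (Fkbp11, Hspa5, Derl1, Derl2, Ern1, Cd79b, Bach2, Bcl6 and Ebf1) were chosen after their values were seen. Protein sequences were not used here.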

Additional observations from a re-analysis of the deposited data

Results flagged for a closer look

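Among 108 groups of 4 mice examined (the levels of the 8 genes and of the listed plasma cell, B cell identity and immunoglobulin constant genes, and the 16 ratios), 8 held a mouse that stood apart from the other 3, where chance gives about 5.4, and none of these was a group of the 8 plasma cell genes. Bhlha15 was at 3.46 CPM in anti-BAFF mouse 8, with the nearest mouse of its group at 0.441 CPM, and this mouse also had the most prostate RNA. Ighg3, an IgG heavy chain constant gene, was at 37.8 CPM in control mouse 9, with the nearest control mouse at 2.92 CPM. Eaf2, listed for plasma cell identity, was at 0.310 CPM in control mouse 1 against 1.02 CPM in the nearest. Cacna1s was at 0.124 CPM in control mouse 9 and at 0 in the other 3 control mice, below the level of 3 counts. Bcl6 was highest in control mouse 1 (64.2 CPM, nearest 52.7) and in anti-BAFF mouse 5 (65.2 CPM, nearest 49.1). Bach2 was highest in anti-BAFF mouse 5 (11.8 CPM, nearest 9.10), and Id3 was lowest in control mouse 1 (173 CPM, nearest 357).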

How the results depend on the processing

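Jchain and Mzb1 were lower at an unadjusted p of 0.05, with no overlap of the groups where that was recounted, in every setting tried. The number of the 8 genes lower at an adjusted p of 0.05 was 1, but 2 in DESeq2 (with Mzb1), and 0 with edgeR's robust option, without immunoglobulin genes, without control mouse 2 and anti-BAFF mouse 7, without these and anti-BAFF mouse 8, and with the epididymis level as a covariate (the last 2 chosen after seeing the data). It ranged from 0 to 1 when single mice were left out, and was 0 without any mouse other than control mouse 2. Over all genes, DESeq2 called 66 lower and 4 higher, edgeR without a filter 19 lower, and edgeR's robust option 2 lower, against 9 lower. The adjusted p of Jchain in edgeR was 0.0523 (robust option), 0.160 (no immunoglobulin genes, 15843 genes tested), 0.110 (without mice 2 and 7), 0.188 (without mice 2, 7 and 8) and 0.0523 (covariate). The number higher at an unadjusted p of 0.05 was 0, but 1 (Prdm1) with the covariate, and from 0 to 1 when single mice were left out. Values close to 0 changed sign. The log2 fold change of Xbp1 was -0.0062 with RLE factors, -0.012 with library size only, -0.0033 in DESeq2, -0.011 in limma, -0.012 without a filter, -0.015 with at least 10 counts in every mouse and -0.00057 without immunoglobulin genes. That of Sdc1 was -0.0069 with library size only, -0.015 in limma, -0.0024 without a filter, -0.0048 with at least 10 counts in every mouse and -0.091 without mice 2, 7 and 8. Leaving out single mice gave log2 fold changes from -0.703 to 0.076 for Derl3, from -0.27 to 0.022 for Irf4, from -0.13 to 0.065 for Sdc1 and from -0.054 to 0.025 for Xbp1. Igkc in place of Ighm and Cd79b in place of Cd79a were tried together. Against Igkc, the Jchain difference was -0.040, and those of Prdm1 (3.04), Xbp1 (2.80), Irf4 (2.66), Sdc1 (2.80) and Pim2 (2.63) kept the smallest exact permutation p with an adjusted p of 0.0653, since fewer of the 16 ratios reached it, all of the losses other than that of Jchain being among those against Cd79b. Against Cd79b, the differences were -2.11 (Jchain) and -1.45 (Mzb1), both at the smallest exact permutation p (adjusted 0.0653), and 0.98 (Prdm1), 0.73 (Xbp1), 0.59 (Irf4), 0.73 (Sdc1) and 0.56 (Pim2), with adjusted exact permutation p from 0.102 to 0.327. The cause of the other changes was not tested. Leaving out a mouse gave ratios with no test. Few counts limit Mzb1, Derl3 and Pim2. No paired analysis was possible because the mouse numbers differ between the groups.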
